A study of Homo sapiens with 12 samples.

Results

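Glycolysis splits glucose into pyruvate in a chain of enzymatic steps. Hexokinase traps glucose as glucose-6-phosphate, phosphofructokinase commits it to the pathway, aldolase cleaves the sugar phosphate, and the later enzymes recover ATP and NADH before lactate dehydrogenase turns pyruvate into lactate. Tumour cells are known for running this route quickly even in oxygen, and most of these enzymes are encoded by abundant mRNAs that serve as housekeeping transcripts. Here 10 genes of the pathway were followed in a map of internal N7-methylguanosine (m7G) in mRNA: HK2 (ENSG00000159399), GPI (ENSG00000105220), PFKL (ENSG00000141959), ALDOA (ENSG00000149925), TPI1 (ENSG00000111669), GAPDH (ENSG00000111640), PGK1 (ENSG00000102144), ENO1 (ENSG00000074800), PKM (ENSG00000067225) and LDHA (ENSG00000134333). They were picked as a fixed list of Ensembl IDs out of 18569 IDs, and they hold 1936 of the 842183 positions measured. The deposited values carry IDs and no symbols, so each symbol rests on the list that paired it with its ID.

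The cells were LNCaP-AI, an androgen-independent derivative of the LNCaP prostate cancer line, carrying a short hairpin against METTL1 (shMETTL1) or a scrambled hairpin (shscramble), with 3 replicates of each. METTL1 is the methyltransferase that places m7G in several kinds of RNA. In AlkAniline-Seq, RNA is broken chemically at m7G, adapters are joined to the freed ends and reads therefore start at single positions. Each replicate also has an input library prepared without that selection. Both groups come from 1 line, the label names 1 hairpin for the knockdown, and nothing in the labels says whether replicates are separate cultures, so p-values measure the spread between these libraries only. METTL1 itself and markers of prostate cells could not be looked up, since the reference used here pairs no symbol with an Ensembl ID.

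Designed sequences of the study that bear on these genes are the stem of the METTL1 hairpin, which sets the groups apart, and the primers for GAPDH, the gene that served as its internal control in RT-qPCR. They are shown to give the reagent behind the comparison and the part of GAPDH that was read elsewhere in the study.
shMETTL1 stem: ggaatgtagtccatctaaact
GAPDH forward primer: acaactttggtatcgtggaagg
GAPDH reverse primer: gccatcacgccacagtttc

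Several of these genes are textbook targets of hypoxia-inducible factor, whose binding sites hold the core ACGTG. RefSeq promoters (GRCh38.p14, 250 bases before to 50 after the start site) were found by symbol for all 10 genes. The core, searched on both strands as ACGTG or CACGT, was present in 6 of the 10, namely GAPDH, PGK1, ALDOA, LDHA, GPI and HK2, against 21.4% of 35116 promoters of the same length. The promoters of the 10 genes had a median GC content of 70.3%, against 58.7% for all. Matches in 3 of them are shown with the core in capitals, chosen as enzymes of the later steps.
PGK1, GRCh38.p14 chrX:78104036-78104060, plus strand: ggcgtgccggACGTGacaaacggaa
LDHA, GRCh38.p14 chr11:18394466-18394490, plus strand: gcccgactcaCACGTgggttcccgc
GAPDH, GRCh38.p14 chr12:6535173-6535197, plus strand: tctgcggggtCACGTgtcgcagagg
Where the strand opposite to the gene reads ACGTG, the capitals read CACGT. In the LDHA and GAPDH stretches shown a G follows, so the gene's own strand holds ACGTG there as well. ENO1, PKM, TPI1 and PFKL have no match in this window, which says only that the letters are not there.

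Libraries differed in ways that touch the results. AlkAniline-Seq counts summed to 2474464 to 2764417 in shMETTL1 and 1421551 to 2624431 in shscramble, and input counts to 2783709 to 3258499 in shMETTL1 and 3045523 to 3152800 in shscramble. The 10 genes held 0.415 to 0.567% of the AlkAniline-Seq counts in shMETTL1 and 0.375 to 0.449% in shscramble, and 0.577 to 0.638% of the input counts. In shscramble replicate 1, a read was present at every member position that held 50 or more reads in shscramble replicate 2 (96 positions) or 3 (37 positions). Over all positions these shares were 99.9% and 100%, whereas the shares for the other pairs of AlkAniline-Seq libraries ran from 31.1 to 63.4%. Why that library overlapped the other 2 was not tested, and it may not be independent of them. SDs, SEs and p-values over 3 shscramble libraries treat it as independent. The main results are therefore also given without that library. In the input, shscramble replicate 2 stood apart, with a read at 290 member positions against 605 to 1086 in the other input libraries. Many of these genes have near-identical processed pseudogenes, and the sources used here do not give how such reads were divided.

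The first comparison asked whether the AlkAniline-Seq reads of each gene, summed over its positions, differed after METTL1 knockdown. No gene of the 10 passed the test. The fitted values of 9 were above 0, where 52.9% of all IDs were, though ALDOA and PFKL lay within a fraction of their SE of 0 and PFKL turned to −0.08 with library size alone. The 10 had a median log2 fold change of 0.32 against 0.07 over the 11097 IDs tested. Without shscramble replicate 1 it was again 9 of 10, with a median of 0.29. Over all IDs, edgeR's quasi-likelihood test with Benjamini-Hochberg adjustment called 0.0% higher and 0.00901% lower. ENO1 alone had an unadjusted p under 0.05, on the higher side (3.84% of all IDs were higher and 3.14% lower by that measure), and DESeq2 called none of the 10 either. ENO1 and PKM had CPM (counts scaled to a common library total, after TMM) that did not overlap between groups, both higher in shMETTL1, as did 7.1% of all IDs in that direction and 7.38% in the other.

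ENO1 encodes enolase, which makes phosphoenolpyruvate. Its AlkAniline-Seq CPM was 963, 1109 and 1024 in shMETTL1 replicates 1, 2 and 3, and 588, 755 and 569 in shscramble. Every shMETTL1 library lay above every shscramble library, at 1032 ± 73.4 against 637 ± 102 CPM (SD, n = 3 each). The fitted log2 fold change was 0.70 (SE 0.26, edgeR adjusted p = 0.585), and it was 0.63 without shscramble replicate 1. The cells were measured in bulk. A change in how many cells gave these reads and a change in reads per cell therefore cannot be told apart. PKM, the pyruvate kinase that yields pyruvate and ATP, showed a smaller gap of the same kind. Its CPM was 1077, 1080 and 982 in shMETTL1 and 846, 836 and 909 in shscramble, with a log2 fold change of 0.28 (SE 0.25, edgeR adjusted p = 0.908).

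**Figure D1:**
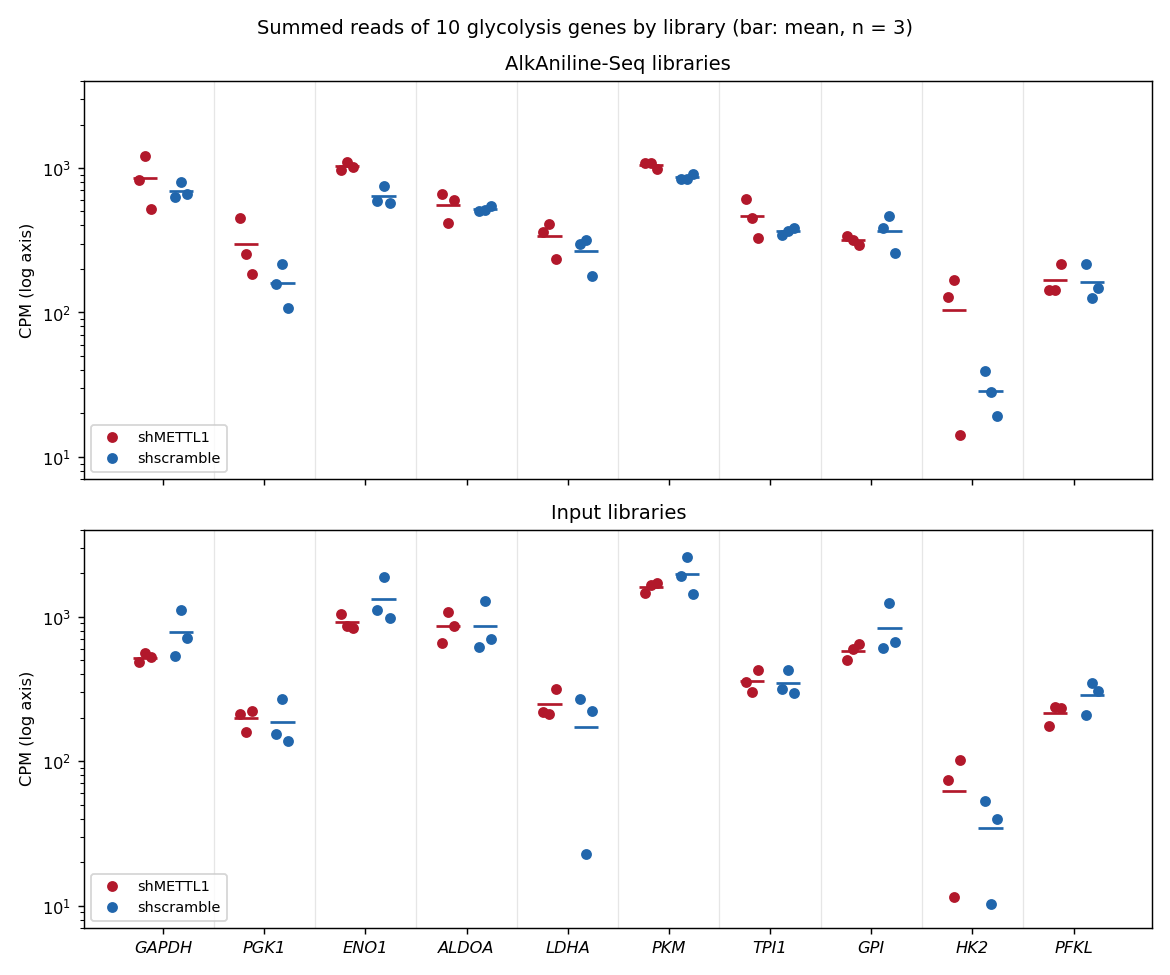
Reads of each of the 10 genes summed over positions, as CPM on a log axis, in each AlkAniline-Seq library (top) and input library (bottom), with shMETTL1 left of shscramble and a bar at the mean of 3 libraries. ENO1 and PKM are separated in the upper panel, and 1 shscramble input library reads 22.6 CPM for LDHA and 10.3 for HK2.

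Among the first steps of the pathway, HK2 varied most between libraries. HK2, hexokinase 2, had CPM of 129, 168 and 14.1 in shMETTL1 and 39.0, 28.1 and 19.2 in shscramble. Its log2 fold change of 1.84 was the highest of the 10 and its SE of 0.92 the widest, since shMETTL1 replicate 3 lay below every shscramble library while the other 2 lay above. Only 33 reads stood behind that low value, and in shMETTL1 replicate 2 the 413 reads of HK2 were stacked, with 135, 85 and 84 of them at 3 positions. PFKL, the liver-type phosphofructokinase, read 142, 142 and 216 CPM in shMETTL1 and 217, 126 and 148 CPM in shscramble, a log2 fold change of 0.03 (SE 0.46). GPI, which converts glucose-6-phosphate to fructose-6-phosphate, was the 1 gene with a value below 0, at −0.22 (SE 0.34), and it read 337, 319 and 293 CPM in shMETTL1 and 384, 464 and 258 CPM in shscramble. The groups of all 3 genes overlapped.

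In the middle of the pathway the groups overlapped as well. GAPDH, which makes 1,3-bisphosphoglycerate and NADH, read 827, 1219 and 519 CPM in shMETTL1 and 630, 794 and 665 CPM in shscramble. Both the highest and the lowest GAPDH value of the 6 libraries thus belonged to shMETTL1, and the log2 fold change of 0.30 (SE 0.31) fell to −0.03 when shMETTL1 replicate 2 was left out. PGK1, the phosphoglycerate kinase that yields the first ATP, read 452, 255 and 184 CPM in shMETTL1 and 158, 218 and 107 CPM in shscramble, a log2 fold change of 0.88 (SE 0.45, edgeR adjusted p = 0.753). Only shMETTL1 replicate 3 fell within the shscramble range for this gene, and the value was 0.46 without shMETTL1 replicate 1. ALDOA (aldolase), TPI1 (triose phosphate isomerase) and LDHA (lactate dehydrogenase A) had log2 fold changes of 0.09, 0.34 and 0.34, each smaller than or about as large as its SE of 0.30, 0.33 and 0.38.

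The knockdown was next compared in the input, which reads the same genes without selection for cleaved ends. Of the 10 genes, 5 lay above and 5 below shscramble in shMETTL1, with a median log2 fold change of −0.15 (−0.04 over 11740 IDs). None passed the test, and edgeR called 0.0% of all IDs in either direction. Before adjustment none of the 10 had a p under 0.05, as 1.64% of all IDs did on the higher and 4.62% on the lower side, and no gene of the 10 had input CPM that separated the groups (7.64% of IDs with shMETTL1 above and 5.84% below). GAPDH read 482, 558 and 523 CPM in shMETTL1 and 533, 1104 and 716 CPM in shscramble, a log2 fold change of −0.59 (SE 0.34), and ENO1 read 1036, 859 and 837 CPM in shMETTL1 and 1110, 1881 and 971 CPM in shscramble, at −0.54 (SE 0.31). These input values leaned on shscramble replicate 2. After TMM it was the highest of the 6 input libraries for GAPDH, ENO1, PKM, ALDOA, PGK1, GPI and PFKL, and the lowest for LDHA and HK2. With library size alone it was the highest only for ENO1 and GPI, and still the lowest for LDHA and HK2. LDHA had 46 reads in that library against 716 to 948 in the other 5, and HK2 had 21. Without it, the log2 fold changes of ENO1, PKM and GPI in the input were −0.20, −0.06 and −0.12. That library had a TMM factor of 0.67 where the other 5 had 1.01 to 1.19, and scaling by library size alone moved the median over all IDs in the input to 0.22 and that of the 10 genes to 0.22.

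AlkAniline-Seq was then set against input, in a single fit over the 12 libraries with the difference of differences as the test. The log2 change of AlkAniline-Seq over input, shMETTL1 against shscramble, was above 0 for 9 of 10 genes (all but LDHA, −0.09) and 56.2% of all IDs, and its median was 0.65 against 0.24 over 12877 IDs (9 of 10 and 0.73 without shscramble replicate 1). No gene of the 10 passed edgeR's test, which called 0.0% of IDs higher and 0.00777% lower. ENO1 and GAPDH had an unadjusted p under 0.05, both on the higher side, as did 5.3% of IDs there and 3.04% on the lower side. The scale matters here: with library size alone the median over all IDs was −0.28 and that of the 10 genes 0.07, so that the 10 genes lay 0.35 above the median of all IDs, against 0.41 with TMM. Of the 10, 8 lay above the median of all IDs under both scalings.

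ENO1 was again the clearest of the 10. Its CPM in AlkAniline-Seq over that in the same replicate's input was 0.90, 1.20 and 1.13 in shMETTL1 and 0.47, 0.32 and 0.52 in shscramble. The groups did not overlap, as for 6.65% of IDs in this direction and 6.29% in the other, and the log2 difference was 1.39 (SE 0.42, edgeR adjusted p = 0.459). It was 1.33 without shscramble replicate 1, 1.13 without replicate 2 and 0.74 with library size alone. For GAPDH the ratios were 1.66, 2.02 and 0.92 in shMETTL1 and 1.04, 0.58 and 0.82 in shscramble, which overlapped, with a log2 difference of 1.04 (SE 0.49, edgeR adjusted p = 0.590) that was 0.41 with library size alone. LDHA ran from 0.69 to 1.80 in shMETTL1 and from 0.70 to 11.4 in shscramble, where the top value was the replicate whose input held 46 reads. Without shscramble replicate 1, the ratios of GAPDH, PGK1, ENO1, GPI and PFKL did not overlap, all with shMETTL1 above. Leaving out a library makes separation easier, and the share over all IDs was not computed for that setting.

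**Figure D2:**
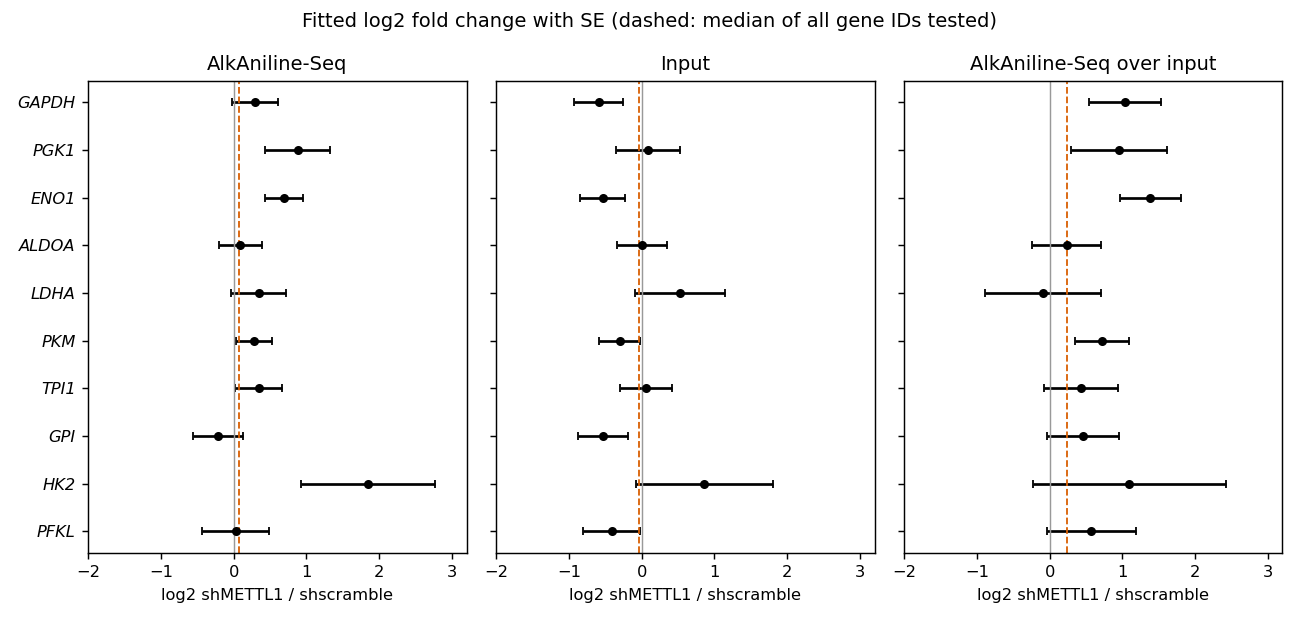
Fitted log2 fold changes of the 10 genes, shMETTL1 over shscramble, with their SE, for AlkAniline-Seq, for input and for AlkAniline-Seq over input. The dashed line is the median of all IDs tested (0.07, −0.04 and 0.24), and ENO1 has the highest log2 value over input, 1.39.

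Within a group, AlkAniline-Seq against input asks whether a gene gives more or fewer reads after the cleavage chemistry than before it. In shMETTL1 cells 6 of the genes lay above 0 and 4 below (median 0.18, all IDs 0.17), and none passed, whereas edgeR called 0.0854% of IDs higher and 0.124% lower. Before adjustment 3 were lower with p under 0.05 (ALDOA, PKM and GPI) and 0 higher, against 4.74% and 3.53% of all IDs. In shscramble cells 9 lay below 0 (median −0.71, all IDs −0.08), and 2 fell below input past the threshold, PKM and ENO1, where 0.544% of all IDs did (0.0932% were called higher). Before adjustment 5 were lower with p under 0.05 (PKM, ENO1, GPI, ALDOA and PFKL) and 0 higher, against 8.86% and 4.32% of all IDs. PKM fell by 1.44 on the log2 scale in shscramble (SE 0.27, edgeR adjusted p = 0.00855), and its value in shMETTL1 was −0.71 (SE 0.26, adjusted p = 0.433). ENO1 fell by 1.29 in shscramble (SE 0.30, edgeR adjusted p = 0.0446), and its value in shMETTL1 was 0.09 (SE 0.29). The difference between the groups is the test over input above, which neither gene passed.

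The PKM call was lost without shscramble replicate 1 (edgeR adjusted p = 0.132) or 2 (0.0795), and the ENO1 call without any of the 3 and with library size alone (0.181). GPI was at −0.97 (SE 0.36) in shMETTL1 and −1.43 (SE 0.36, adjusted p = 0.0713) in shscramble, and it passed in shscramble when each AlkAniline-Seq library was paired with its own input (edgeR adjusted p = 0.0397). ALDOA and PFKL were below 0 in both groups without passing, at −0.73 and −0.47 in shMETTL1 and −0.97 and −1.04 in shscramble. LDHA was above 0 in both, at 0.35 (SE 0.56) in shMETTL1 and 0.43 (SE 0.56) in shscramble.

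**Figure D3:**
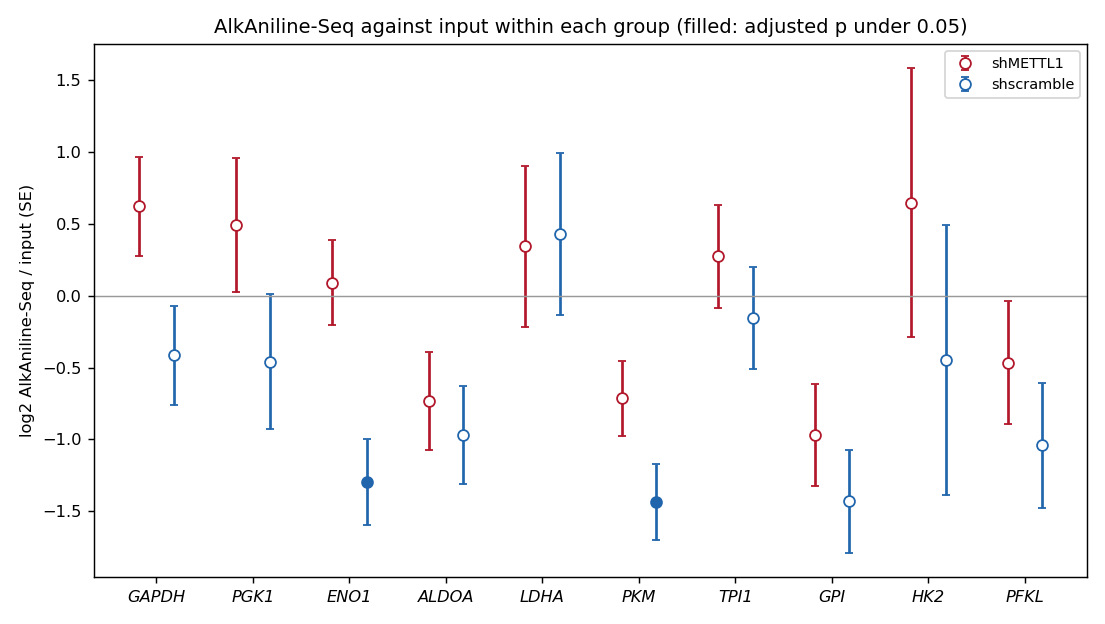
Log2 of AlkAniline-Seq over input for each gene within shMETTL1 (left of each pair) and within shscramble (right), with the SE of the edgeR fit. Filled points have an adjusted p under 0.05, which only PKM (−1.44) and ENO1 (−1.29) in shscramble have.

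Single positions show where these reads come from. Of the 1936 positions, 1187 held a read in some AlkAniline-Seq library, and 749 held reads in input only. Of the 1187, 64 (5.39%) were read in all 6 AlkAniline-Seq libraries, and 547 (46.1%) in 1 library only. Over the whole map these shares were 1.9% and 62.9%. GAPDH had 21 of the 64 positions, PKM 12 and ENO1 10, while PFKL had none. Without shscramble replicate 1, 65 of 1070 positions (6.07%) were read in all 5 libraries and 608 (56.8%) in 1 only, against 2.2% and 75.4% over the whole map. Most positions were thus not recurrent, and the rank correlation of the 6 libraries' read profiles over positions had a median of 0.44 within groups for GAPDH and 0.18 for LDHA, given as a description over 219 and 133 positions that share their libraries.

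The most-read ENO1 position carried 11.2% of the AlkAniline-Seq reads of the gene. It held 222, 321 and 522 reads in shMETTL1 and 76, 45 and 98 in shscramble, a log2 fold change of 1.99 (SE 0.81, edgeR adjusted p = 0.455). The groups did not overlap, but the position was read still more often in the input, with 746, 923 and 695 reads in shMETTL1 input and 994, 1609 and 806 in shscramble input. The share of all positions separated by their AlkAniline-Seq reads was not computed. As a share of the reads covering it, the count was 18.3, 26.6 and 44.5% in shMETTL1, 13.8, 4.43 and 20.3% in shscramble, and 36.6 to 61.0% in input. A second ENO1 position held 64, 125 and 102 reads in shMETTL1 against 2, 12 and 4 in shscramble, a log2 fold change of 4.02 (SE 1.66, edgeR adjusted p = 0.471). Leaving out the most-read position, ENO1 still had 876, 979 and 801 CPM in shMETTL1 against 546, 738 and 500 CPM in shscramble, without overlap. By the same step PKM stayed separated, and PGK1 became so, at 362, 255 and 184 CPM in shMETTL1 against 152, 173 and 107 CPM in shscramble. The share of all IDs separated in this way was not computed.

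The leading positions of PKM and GPI held more reads in every input library than in any AlkAniline-Seq library. PKM's held 32, 218 and 133 reads in shMETTL1 and 100, 272 and 100 in shscramble, against 1173 to 1820 in the shMETTL1 input and 1286 to 1655 in the shscramble input. GPI's held 111, 15 and 91 reads in shMETTL1 and 79, 164 and 116 in shscramble, with 562 to 819 in the input of both groups. Divided by each library's total count, the AlkAniline-Seq reads at the GPI position separated the groups, with shMETTL1 below shscramble. Of the leading positions, only those of ENO1 (shMETTL1 above) and GPI were separated on that scale. ALDOA's held 435, 16 and 109 reads in shMETTL1 and 185, 217 and 174 in shscramble, so that 1 shMETTL1 library was high and another nearly empty, and its input held 1047, 931 and 615 reads in shMETTL1 and 501, 46 and 196 in shscramble. For HK2 and PGK1 the leading position belonged to a few libraries. HK2's held 3, 135 and 0 reads in shMETTL1 and 1, 1 and 0 in shscramble, and PGK1's held 232, 0 and 0 in shMETTL1 and 11, 121 and 0 in shscramble.

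**Figure D4:**
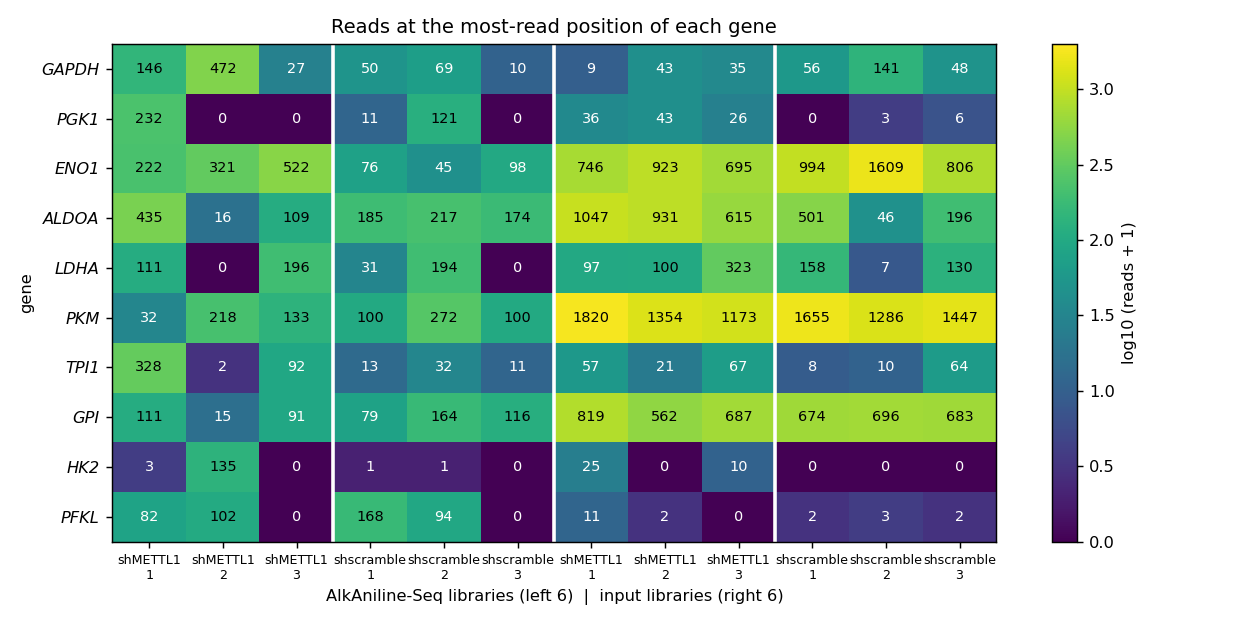
Reads at the position of each gene that holds most of its AlkAniline-Seq reads, printed and coloured on a log10 scale (reads + 1), in the 6 AlkAniline-Seq libraries (left, shMETTL1 before shscramble) and the 6 input libraries (right). ENO1, PKM and GPI are brightest in the input, and the HK2 position holds 135 reads in 1 shMETTL1 library and at most 3 in the other 5 AlkAniline-Seq libraries.

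Tested one by one, 119 of the member positions passed the filter, 63 above and 56 below shscramble in shMETTL1. None passed edgeR's threshold, as for all 13973 positions tested (0.0% in either direction). Before adjustment, 2 were higher with p under 0.05, both in ENO1 and both given above, and 9 were lower, where 1.88% of all positions were higher and 6.32% lower. The 9 lower ones lie in TPI1 (3), GAPDH (2), GPI (2), ALDOA (1) and PFKL (1). Among them, 1 GAPDH position held 0, 0 and 0 reads in shMETTL1 against 39, 64 and 32 in shscramble, and 1 ALDOA position held 0, 0 and 0 against 9, 55 and 48. A TPI1 position held 0, 0 and 0 reads in shMETTL1 against 10, 42 and 7 in shscramble, and 1 PFKL position held 0, 0 and 0 against 7, 14 and 12. The filter needs reads in at least 3 libraries, so a position empty in 1 group passes only by being read throughout the other, and such counts are given as description. The groups are also not alike in this. In shscramble replicate 1 a read was present at every member position with 50 or more reads in shscramble replicate 2 or 3. The 9 lower against 2 higher positions are therefore not read as a direction of the knockdown. DESeq2 called 5 of the 119 member positions, 1 higher and 4 lower, and 713 of all 13973 positions that passed the filter. The 5 are therefore not read as a result about the 10 genes.

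Positions seen in 1 group only ran both ways. In AlkAniline-Seq, 7 member positions in 5 genes were read in all 3 shMETTL1 libraries and in no shscramble library, and 13 positions in 8 genes the other way round. Without shscramble replicate 1, positions were counted alike for 2 libraries against 2. For the 3 pairs of shMETTL1 libraries, 39, 38 and 32 positions were read in both of the pair and in neither shscramble library, against 33, 29 and 37 positions read in both shscramble libraries and in neither of the pair. The shMETTL1 count was thus the higher for 2 of the 3 pairs and the lower for the third. Counts of this kind over all positions of the map were not computed. Whether the member positions differ from the rest of the map in this was therefore not tested.

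The count at a position over the reads covering it sets the count against the coverage there. It was not free of abundance. In AlkAniline-Seq, GAPDH had 2.48 to 4.04% at a summed coverage of 37776 to 96204. PFKL had 12.9 to 21.5% at 1617 to 2433. Levels of this percent are therefore not compared between genes. Summed over a gene, that percent did not separate the AlkAniline-Seq groups for any of the 10 genes (5.31% of 12020 IDs were separated with shMETTL1 above and 6.81% below), nor did it without shscramble replicate 1. For ENO1 it was 4.38, 5.08 and 5.69% in shMETTL1 and 4.13, 4.39 and 4.01% in shscramble, a difference of 0.87 percentage points (exact two-sided permutation test, p = 0.2, with 0.1 the smallest that 3 against 3 allow). The lowest shMETTL1 library lay just under the highest shscramble library, and with positions of 10 or more covering reads alone the groups of ENO1 were separated, at 5.03 ± 0.64% against 4.15 ± 0.20% (SD, n = 3 each, exact permutation test, p = 0.1). The share of all IDs separated at that coverage was not computed. For ALDOA the percent over all its positions was 6.70, 3.57 and 5.38% in shMETTL1 and 7.24, 7.44 and 6.66% in shscramble (exact permutation test, p = 0.2), and for GPI 7.75, 6.61 and 5.22% in shMETTL1 and 9.15, 8.90 and 7.62% in shscramble (exact permutation test, p = 0.2). ALDOA and GPI thus lay lower in shMETTL1 in all but 1 library, without separation. In the input the percent of LDHA was 5.28, 5.17 and 5.42% in shMETTL1 and 4.07, 1.36 and 4.38% in shscramble, the 1 gene of the 10 separated there (exact permutation test, p = 0.1; 7.14% of 12408 IDs were separated with shMETTL1 above and 3.43% below). Its lowest value was again shscramble replicate 2. HK2 spread most, at 41.8, 21.7 and 10.7% in shMETTL1 and 15.2, 16.4 and 8.85% in shscramble. Over the 10 genes together, the percent was 4.13 to 4.89% in shMETTL1 and 4.06 to 5.02% in shscramble, and 5.24 to 5.91% in the input libraries. Over all positions it was 6.28 to 6.96% in shMETTL1 and 6.61 to 7.07% in shscramble, against 6.86 to 7.76% in shMETTL1 input and 6.43 to 6.60% in shscramble input, so that in shscramble all positions together lay above their input and the 10 genes below it.

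Positions covered by 10 or more reads in all 12 libraries allow the same reading site by site, and 537 of 42849 such positions lie in the 10 genes, none of them in HK2 or PFKL. At 0 of the 537 was the percent above that of the paired input in all 6 replicates, where 0.387% of all such positions were. At 12 of the 537 it was below input in all 6 (6 in PKM, 4 in ENO1, 1 in ALDOA and 1 in GPI), a share of 2.23% against 2.2% of all. Between groups, 5 of the 537 positions had every shMETTL1 library above every shscramble library (1.29% of all positions) and 21 had them below (4.4% of all), shares of 0.931% and 3.91% that are close to or under those of the whole map. Without shscramble replicate 1, 0 of 537 were above input in all 5 pairs (0.524% of all), 17 below (2.97%), 8 had shMETTL1 above (2.35%) and 27 below (5.59%). An ALDOA position had 17.2, 9.94 and 6.07% in shMETTL1 against 37.5, 29.3 and 23.7% in shscramble, with 15.1 to 24.4% in the inputs. ENO1 had separated positions of both kinds, 2 above and 3 below. An ENO1 position of the upper kind had 0.785, 11.1 and 14.0% in shMETTL1 against 0, 0 and 0% in shscramble, and one of the lower kind had 1.30, 10.5 and 9.47% in shMETTL1 against 22.1, 22.7 and 14.9% in shscramble.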

How the data were processed

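AlkAniline-Seq and input libraries of LNCaP-AI cells (shMETTL1 and shscramble, 3 replicates each, 12 libraries) were used. The authors deposited, for each position, a count of reads, the coverage signal (reads over the position), a fraction (count over coverage) and a fold ratio of that fraction over the input's. Their processing notes list hg19, Bowtie2 2.2.4, bedtools 2.24 and cutadapt 1.9.1, and leave filters, annotation and strand handling unstated. Only counts and coverage were analysed, and rows were matched between files by order, with identical IDs.

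Counts were summed per ID and tested over all IDs with edgeR 4.0.16 in R 4.3.3 (TMM, filterByExpr at its defaults of 10 reads and 15 in total, quasi-likelihood test, Benjamini-Hochberg adjustment, threshold 0.05), also as an interaction with input, within each group, and per position. SEs were derived from the F statistic. edgeR's estimate of variation between replicates (a coefficient) was 0.90 per ID and 1.42 per position. Group percents were compared by exact permutation tests in Python 3.11.15, and the permutation p-values printed above are unadjusted. With Benjamini-Hochberg adjustment over all IDs, the permutation p was 0.935 for ENO1, ALDOA and GPI in AlkAniline-Seq and 0.946 for LDHA in input. No adjusted value was computed at a coverage of 10 or more. DESeq2 1.42.0, limma 3.58.1, the methods' t-test (pseudocount 1), library size alone, no filter, leaving out replicates and a replicate block were alternatives. Scripts were tested on simulated data. All 10 members are named. Members, lists and tests were chosen with earlier results of these data known. Levels were not compared between genes, for which transcript lengths would be needed. The coverage minimum of 10, single-position percents, positions of 1 group, CPM without the leading position and leaving out replicates within groups were added or extended after seeing the data.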

Additional observations from a re-analysis of the deposited data

How the results depend on the processing

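None of the 10 genes was called between shMETTL1 and shscramble in any alternative of the gene fits. Of 510 values of single genes under alternatives, 48 changed sign, all of them for genes not called. For the percent of coverage, the median over positions was also tried. It was 0 in both groups for all 10 genes, so it could not change sign, though it is counted among the 510.

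Gene IDs called in AlkAniline-Seq (1) numbered 2 with library size alone, 178 with DESeq2, 19 with no filter, 0 with the methods' t-test (964 at an unadjusted p under 0.05, 0 after adjustment), 0 for the position with the most reads and 0 to 3 without a replicate. In the input (0) they numbered 35 with DESeq2 and 95 with no filter, and over input (1) 96 with DESeq2, 31 with no filter, 0 with limma and 0 to 1 without a replicate. Within shMETTL1 (27) they numbered 57 with library size alone and 1 without any replicate. Within shscramble (82) they numbered 17 to 41 without a replicate, and the members called (2) 1 with library size alone and 0 to 1 without a replicate. Positions called (0) numbered 713 with DESeq2, 15 with a mean of 10 reads per library (a setting that tests more positions than the default filter) and 3 to 5644 without a replicate; member positions called numbered 5 with DESeq2 and 0 to 19 without a replicate. The 5644 and the 19, all 19 lower in shMETTL1, came without shscramble replicate 3, when the group is replicates 1 and 2; the cause was not tested.

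Deviations of same-numbered libraries correlated at -0.02 to 0.05, and those of differently numbered libraries at -0.07 to 0.05. With ranges this alike and 3 libraries in a group, the correlations cannot decide whether the replicate numbers pair the libraries. The labels give each AlkAniline-Seq library and its input the same number. With the replicate block, the IDs called numbered 3 in AlkAniline-Seq, 2 in input and 69 within shMETTL1, and positions 6; GPI within shscramble became a call and no other member's call changed.

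The median of the 10 genes was 0.28 to 0.56 without a replicate in AlkAniline-Seq. In the input it was 0.22 with library size alone and -0.46 with DESeq2, which left 2 of the 10 above 0, as few as without a replicate (2 to 5). Over input it was 0.067 with library size alone. Within shscramble it was -0.32 with library size alone, with 4 of the 10 above 0. Genes whose percent of coverage separated the groups (0) numbered 1 (ENO1) at a coverage of 10 or more and 0 to 4 without a replicate. The share over all IDs was computed for the main setting alone, and leaving out a library makes separation easier.

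Sign changes with library size alone were PFKL (-0.079) in AlkAniline-Seq, PKM (0.056) in input, ALDOA (-0.37), TPI1 (-0.14) and GPI (-0.18) over input, ENO1 (-0.050) within shMETTL1, and GAPDH (0.079), PGK1 (0.054) and TPI1 (0.30) within shscramble. With DESeq2 they were PGK1 (-0.24), ALDOA (-0.32) and TPI1 (-0.22) in input, with no filter ALDOA (-0.0051) there, and at the position with the most reads ALDOA (-0.064), PKM (-0.011) and PFKL (-0.80). TPI1's percent of coverage turned to 0.068 at a coverage of 10 or more. Without a replicate, AlkAniline-Seq values ran from -0.031 to 0.28 for ALDOA, -0.033 to 0.57 for GAPDH, -0.18 to 0.28 for PFKL and -0.40 to 0.013 for GPI; input values from -0.22 to 0.40 for ALDOA, -0.11 to 0.45 for PGK1 and -0.10 to 0.23 for TPI1; values over input from -0.23 to 0.62 for ALDOA and -0.55 to 0.58 for LDHA; within shMETTL1 from -0.020 to 0.62 for TPI1 and -0.38 to 1.73 for HK2; within shscramble from -0.24 to 0.89 for LDHA and -0.32 to 0.063 for TPI1; and differences in percent of coverage from -0.44 to 1.15 for LDHA, -0.42 to 0.31 for TPI1 and -0.41 to 0.37 for GAPDH.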
